A study of Mus musculus with 11 samples.

Results

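The genes described here encode histones. They were taken by symbol from the array's annotation, as genes named as linker histones (H1f), core histones (H2a, H2b, H3 and H4 of the clustered families) or histone variants (H2A.X, H2A.Z, H3.3, macroH2A and an H2B variant). Each gene was read from the probe set, a group of probes against 1 transcript, that was listed for that gene alone and had the highest mean log2 signal over all arrays. This gave 22 genes of the 18193 measured, with 6 linker, 7 replication-dependent core and 9 variant genes. Of these, 17 passed the filter on dim signals and were tested, as were 13100 genes in all. The clustered genes are near copies of each other, so few of them have a probe set of their own, and no H4 gene did. That a probe set belongs to 1 gene rests on the annotation, and whether it also reads copies of that gene was not tested. A further 25 probe sets, each listed for several histone genes of a family, are described separately as families.

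The cells came from livers of C57/Bl6 mouse embryos at E14.5, with no transgene or treatment named in the labels. They were stained for Ter119, an erythroid surface antigen, and CD71, the transferrin receptor, and sorted by flow cytometry into stages named R1 to R5, in which R1 is the least and R5 the most mature in the sorting scheme that the labels cite. Total RNA was measured on 11 arrays: R2 and R3 had 3 each, R1 and R5 had 2 each and R4 had 1, which is only described. Whether same-stage arrays had independent litters or sorts is not in the labels, so p-values cover the spread between arrays, which may be technical.

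Core histones form the protein spool on which DNA is wound, and linker histones bind where the DNA enters and leaves it. Genes of the replication-dependent histones lie in clusters, are transcribed mainly in S phase and make mRNAs that end in a stem-loop, bound by the protein Slbp, in place of a poly(A) tail. Variant histones such as H2A.Z and H3.3 are mostly encoded by single genes with polyadenylated mRNAs and can enter chromatin outside replication. In terminal erythroid differentiation in mammals, rapidly dividing precursors condense their chromatin and then expel the nucleus. How the RNA was primed for labelling is not given in the sources used here, so the arrays do not tell stem-loop from polyadenylated histone transcripts.

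The sorted stages differed in erythroid marker RNA, and other measures moved with the same sort. The summed signal of the 7 erythroid markers measured, of 10 listed, was 12069 to 16829 on the R1 arrays, 32413 to 62892 on the R2 arrays and 212024 to 242192 on the R3 arrays, with 235079 for R4 and 229825 to 402761 for R5. The summed signal of 10 hepatocyte markers of 12 listed was 3327 to 11272 in R2 and 69839 to 114397 in R3, and all 10 were called higher in R3, with none at 0 on any array. The summed signal of 12 granulocyte markers spanned 81824 to 213689 in R2 and 78668 to 215203 in R3. It was 232359 to 245770 in R1 and 262609 to 283994 in R5. The log2 difference between the 3′ and 5′ probe sets of the pyruvate carboxylase control was 0.20 to 0.38 for R1, 0.75 to 1.84 for R2 and 2.45 to 3.29 for R3, then 2.72 for R4 and 2.27 to 4.62 for R5. The same difference for the beta-actin control overlapped between R2 (0.32 to 0.79) and R3 (0.24 to 0.83). The summed signal of 12 progenitor markers ran the other way: the R1 arrays had 30629 to 36571, the R2 arrays 15607 to 24235 and the R3 arrays 3115 to 7316, while R4 had 11931 and R5 had 6259 to 22209. Lymphocyte markers (1805 to 13221 in R2, 1618 to 3359 in R3) and mast cell markers (911 to 5064 in R2, 1014 to 1954 in R3) overlapped between these stages. In R1 they had 13312 to 57610 and 11537 to 13425, and in R5 9921 to 11297 and 2001 to 8359. Granulocyte, lymphocyte and mast cell sums were thus higher on both R5 arrays than on any R3 array. The part of this in the histone differences was not tested. The hepatocyte markers, the progenitor markers and this 3′ excess all separated R3 from R2, and their part in the histone differences was not tested. Fewer cells of a type and less RNA per cell cannot be told apart in such bulk samples.

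The signal of many histone genes was higher in R3 than in R2. Of the 17 tested histone genes, 9 were higher in R3 and 0 were lower (limma, Benjamini-Hochberg adjusted p under 0.05 over all 13100 genes), where 10.6% of all genes tested were called higher and 10.1% lower. The called genes were the linker gene H1f2, the core genes H3c11, H3c4, H2bc22, H2bc21, H2ac19 and H3c7, and the variant genes H3f3a and H2ax. By class this was 6 of the 7 core genes, 1 of 4 linker genes and 2 of 6 variant genes. One of the 9, H3c11, was below the array median on every R2 array, and of the 15 genes that reached it on an R2 array 8 were called, 5 of 6 core genes among them. The median log2 difference was 1.84 for the core class, 0.80 for the linker class and 0.74 for the variant class, beside -0.14 for all genes, and the differences between classes were not tested. The linker median is the midpoint of the H1f4 and H1f6 differences, and H1f6 lay below the array median on every R2 array. For 10 of the 17 genes, H3c11 among them, every R3 array lay above every R2 array, where 22.6% of all genes tested did so. The count of 9 was 4 without R2 replicate 1 and 5 without R3 replicate 2.

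The other steps held few calls. From R1 to R2, limma called 0 histone genes, where 0.466% of all genes were called in either direction. Of the 17 differences, 15 were below 0, where 47% of all genes had a positive one, and 3 had an unadjusted p under 0.05, as did 13.4% of all genes. From R3 to R5, limma also called 0, where 0.00763% of all genes were called. An unadjusted p under 0.05 was found for 3 histone genes in that step and for 19% of all genes. From R1 to R5, 2 histone genes were higher and 0 lower, where 10.2% of all genes were called higher and 6.57% lower. Over R1, R2, R3 and R5 together, 8 histone genes differed by limma's F-test at an adjusted p under 0.05, as did 36.9% of all genes. These 8 were the genes called between R2 and R3 without H3c7, whose adjusted p was 0.0616. They include H3c11, which lay below the array median on every R2 array. The F-test count was 5 without R1 replicate 1, R3 replicate 1 or R3 replicate 2, and the R1 to R5 count was 5 without R5 replicate 1 and 1 without either R1 array, R2 replicate 1, any R3 array or R5 replicate 2.

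**Figure D1:**
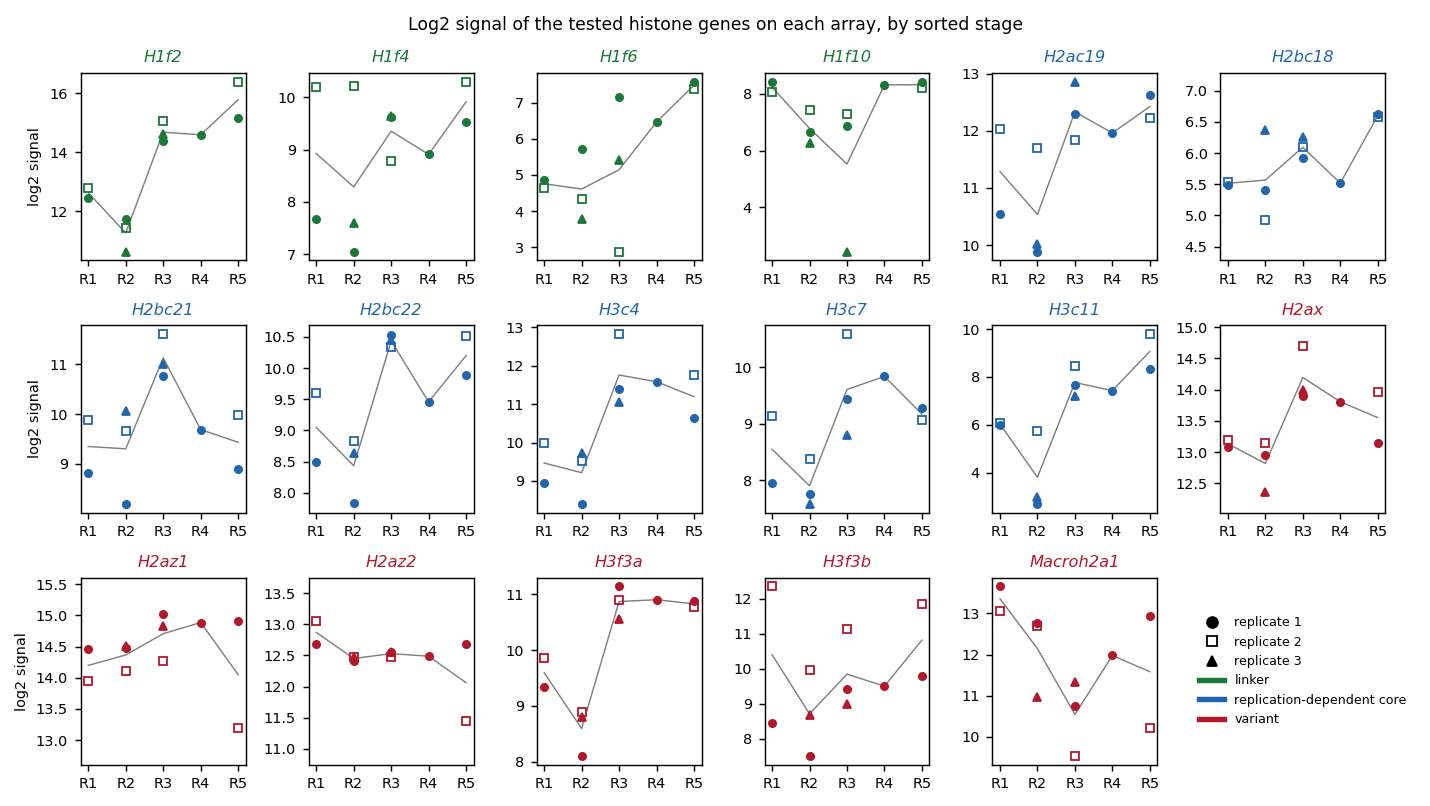
Log2 signal (y axis) of each of the 17 tested histone genes on the 11 arrays, by sorted stage (x axis), with 1 point per array, the shape marking the replicate number, the colour the class and the line joining stage means. In H1f2, H3c11, H3c4, H2bc22 and H3f3a the R3 points all sit above the R2 points, while in H3f3b and H1f4 the replicate 2 arrays sit high in R1 and R2.

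Promoters are shown for genes with unlike signals, to set shared and unshared motifs beside them. A 300-base window, from 250 bases before each gene's start to 50 bases after it, was found in RefSeq (build GRCm38.p6) for 18 of the 22 genes, all but H2ax, H2bc21, H3c7 and Macroh2a3. The first set holds 3 linker genes, with capitals marking matches to AAACACA (known as the H1 box), CCAAT and TATAAA on either strand. H1f2 lies at chr13:23738557-23738856, plus strand, H1f4 at chr13:23622509-23622808, minus strand and H1f10 at chr6:87981433-87981732, minus strand. Each sequence reads 5′ to 3′ on the gene's strand.
H1f2: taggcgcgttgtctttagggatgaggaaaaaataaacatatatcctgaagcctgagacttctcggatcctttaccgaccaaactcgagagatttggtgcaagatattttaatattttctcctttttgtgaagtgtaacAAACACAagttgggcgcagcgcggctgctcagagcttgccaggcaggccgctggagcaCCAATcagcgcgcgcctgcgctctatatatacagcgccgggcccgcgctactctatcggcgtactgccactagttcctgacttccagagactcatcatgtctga
H1f4: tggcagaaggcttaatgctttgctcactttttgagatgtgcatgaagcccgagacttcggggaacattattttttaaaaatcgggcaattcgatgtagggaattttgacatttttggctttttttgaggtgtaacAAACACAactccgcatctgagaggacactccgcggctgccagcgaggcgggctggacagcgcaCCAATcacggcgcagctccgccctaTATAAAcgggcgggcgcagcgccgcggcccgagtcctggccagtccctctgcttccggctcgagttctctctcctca
H1f10: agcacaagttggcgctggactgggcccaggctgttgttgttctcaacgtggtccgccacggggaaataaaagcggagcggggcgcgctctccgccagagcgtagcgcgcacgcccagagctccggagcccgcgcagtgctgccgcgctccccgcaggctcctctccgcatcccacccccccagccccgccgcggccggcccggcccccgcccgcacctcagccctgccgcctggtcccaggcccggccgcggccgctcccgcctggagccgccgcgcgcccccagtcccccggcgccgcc
H1f2 and H1f4 share an AAACACA that starts 112 and 115 bases before the gene start, followed by a CCAAT at 54 and 52 bases before it, and the H1f10 window holds none of these motifs.

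H1f2, a replication-dependent linker histone, had the smallest adjusted p of the histone genes between R2 and R3. Its log2 signal was 12.47 and 12.79 in R1, 11.74, 11.44 and 10.62 in R2, 14.37, 15.06 and 14.62 in R3, 14.59 on the R4 array, and 15.17 and 16.39 in R5. All R3 arrays were above all R2 and R1 arrays, both R5 arrays were above all R3 arrays, and the R2 arrays were below the R1 arrays. The difference of R3 from R2 was 3.42 ± 0.38 on the log2 scale (SE), a 10.7-fold higher signal, with a limma adjusted p of 0.000598. From R1 to R5 it was higher by 3.16 ± 0.46, or 8.91-fold, with a limma adjusted p of 0.00147. The further difference of R5 from R3, 1.10 ± 0.42, did not pass (limma adjusted p = 0.214), nor did the difference of R2 from R1, -1.36 ± 0.42 (limma adjusted p = 0.207). Both other probe sets of the gene gave the same call between R2 and R3 in a fit over all 28825 probe sets, with differences of 3.18 ± 0.45 and 2.27 ± 0.50 (limma adjusted p = 0.00226 and 0.0151).

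Of the other linker genes, none was called by limma in any comparison. H1f4, the other replication-dependent linker gene tested, read 7.67 and 10.19 in R1, 7.05, 10.21 and 7.60 in R2, 9.63, 8.78 and 9.65 in R3, 8.91 on the R4 array, and 9.53 and 10.30 in R5. In R1 and R2 the replicate 2 arrays stood clearly above the rest, so the stages overlapped, and the difference of R3 from R2 was 1.07 ± 0.81 (limma adjusted p = 0.336). H1f10, a linker histone made outside replication, read 8.40 and 8.07 in R1, 6.66, 7.42 and 6.26 in R2, 6.85, 7.29 and 2.43 in R3, 8.32 on the R4 array, and 8.43 and 8.21 in R5. Its R2 arrays were below its R1 arrays, and replicate 3 set its R3 mean. The difference of R5 from R3 was 2.80 ± 1.15 with all arrays and 1.25 without R3 replicate 3, and neither passed (limma adjusted p = 0.231 with all arrays).

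The remaining linker genes are known from germ cells. H1f6, the testis linker histone, reached the array median on 3 arrays, and read 4.87 and 4.64 in R1, 5.72, 4.33 and 3.78 in R2, 7.14, 2.87 and 5.42 in R3, 6.46 on the R4 array, and 7.58 and 7.39 in R5. The 3 arrays were R3 replicate 1 and both R5 arrays, so the gene entered the test through arrays on which it is high, and no size of change is given for it. Both R5 arrays lay above every R1, R2 and R3 array. H1f7, another testis linker gene, was at or above the array median on 1 array and H1f8, the oocyte linker gene, on 0, so neither was tested. Log2 signals spanned 1.59 to 7.42 for H1f7 and 0.59 to 5.85 for H1f8.

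Among core genes, the next promoters belong to the H3 genes called between R2 and R3 that had a promoter entry. H3c4 lies at chr13:23575513-23575812, plus strand and H3c11 at chr13:21783348-21783647, minus strand (GRCm38.p6). Capitals mark CCAAT and TATAAA on either strand, which read ATTGG and TTTATA where they lie on the opposite strand.
H3c4: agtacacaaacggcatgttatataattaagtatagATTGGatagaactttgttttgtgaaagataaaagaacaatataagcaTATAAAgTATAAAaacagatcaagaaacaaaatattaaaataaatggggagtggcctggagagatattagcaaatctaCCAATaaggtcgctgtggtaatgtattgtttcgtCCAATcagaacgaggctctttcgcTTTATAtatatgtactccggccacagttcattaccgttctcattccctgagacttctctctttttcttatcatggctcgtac
H3c11: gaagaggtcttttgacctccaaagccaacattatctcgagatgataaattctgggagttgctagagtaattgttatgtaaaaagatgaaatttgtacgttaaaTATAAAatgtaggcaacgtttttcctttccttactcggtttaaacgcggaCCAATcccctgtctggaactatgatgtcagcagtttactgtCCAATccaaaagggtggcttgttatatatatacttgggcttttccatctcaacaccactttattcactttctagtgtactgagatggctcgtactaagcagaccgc
Both windows hold a CCAAT that starts 56 bases before the gene start and another further upstream.

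H3c11, an H3 gene of the large histone cluster, was dim in R2. Its log2 signal was 5.98 and 6.09 in R1, 2.69, 5.74 and 3.00 in R2, 7.66, 8.45 and 7.19 in R3, 7.43 on the R4 array, and 8.34 and 9.80 in R5. All R3 and R5 arrays lay above all R1 and R2 arrays, and replicate 2 of R2 stood apart from the other R2 arrays. It reached the array median on 0 of 3 R2 arrays, 1 of 2 R1 arrays and every R3, R4 and R5 array, so it passed the filter mainly through the stages where it is high. The fitted difference of R3 from R2, 3.96 ± 0.78 (limma adjusted p = 0.00837), rests on these dim R2 values and is not a measured fold. After 50 was added to every intensity, which weighs down dim signals, it was 1.96 (limma adjusted p = 0.00883). The difference of R5 from R1, 3.03 ± 0.95, came close to the threshold without passing it (limma adjusted p = 0.0522).

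H3c4, another H3 gene on chromosome 13, read 8.95 and 9.99 in R1, 8.40, 9.52 and 9.73 in R2, 11.39, 12.83 and 11.05 in R3, 11.59 on the R4 array, and 10.63 and 11.76 in R5. The R3, R4 and R5 arrays all lay above every R1 and R2 array. R3 was higher than R2 by 2.55 ± 0.54, or 5.84-fold (limma adjusted p = 0.0118), and without R2 replicate 1 the adjusted p was 0.0542. H3c7, also an H3 gene, read 7.96 and 9.14 in R1, 7.75, 8.37 and 7.58 in R2, 9.43, 10.59 and 8.79 in R3, 9.84 on the R4 array, and 9.28 and 9.06 in R5. All its R3 arrays lay above all R2 arrays, and the difference was 1.70 ± 0.48 (limma adjusted p = 0.0327). It kept this call in 12 of 19 alternative settings, with an adjusted p of at most 0.120 in the others.

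The H2B and H2A genes of the class followed, with 3 of 4 called between R2 and R3. H2bc22, an H2B gene, read 8.50 and 9.60 in R1, 7.84, 8.83 and 8.63 in R2, 10.52, 10.33 and 10.45 in R3, 9.46 on the R4 array, and 9.89 and 10.51 in R5. Its 3 R3 arrays were the most alike of any stage, with an SD of 0.10, and lay above every R1 and R2 array. R3 was higher than R2 by 2.00 ± 0.38, or 4.01-fold (limma adjusted p = 0.00671). H2bc21, an H2B gene of the chromosome 3 cluster, read 8.80 and 9.89 in R1, 8.19, 9.66 and 10.05 in R2, 10.78, 11.62 and 11.01 in R3, 9.69 on the R4 array, and 8.88 and 9.98 in R5. The R3 arrays lay above all arrays of every other stage. R3 was higher than R2 by 1.84 ± 0.52 (limma adjusted p = 0.0331), while the difference of R5 from R3, -1.70 ± 0.58, did not pass (limma adjusted p = 0.178). The other probe set of H2bc21 gave 1.46 ± 0.49 and -0.51 ± 0.54 for these differences (limma adjusted p = 0.0632 and 0.637 over all probe sets), and its R5 arrays, at 8.28 and 9.63, overlapped its R3 arrays.

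H2ac19, an H2A gene, read 10.55 and 12.03 in R1, 9.88, 11.71 and 10.02 in R2, 12.30, 11.84 and 12.86 in R3, 11.96 on the R4 array, and 12.63 and 12.22 in R5. Replicate 2 was the highest array of R1 and R2, and R3 still lay above R2 on every array. The difference of R3 from R2 was 1.80 ± 0.53 (limma adjusted p = 0.0368), and the gene's other probe set gave 1.41 ± 0.63 with overlapping arrays (limma adjusted p = 0.137 over all probe sets). H2bc18, an H2B gene near the median signal of the arrays, read 5.49 and 5.54 in R1, 5.40, 4.93 and 6.37 in R2, 5.92, 6.09 and 6.26 in R3, 5.52 on the R4 array, and 6.63 and 6.57 in R5. Its R2 and R3 arrays overlapped, and it was the core gene that was not called (0.53 ± 0.54, limma adjusted p = 0.476). After R3 the class had no common direction, with 3 of 7 differences of R5 from R3 above 0 and a median of -0.24, beside 0.20 for all genes. All 7 core genes had a positive difference of R5 from R1, with a median of 1.14, and none was called, where 42% of all genes were positive. With the replicate number as a block, 3 of the 7 were called higher in R5 than in R1: H3c11 (limma adjusted p = 0.0195), H3c4 (limma adjusted p = 0.0229) and H2bc22 (limma adjusted p = 0.0445). Calls rose generally with this block: over all genes tested, 3735 differed between R5 and R1 in either direction, beside 2195 without it. Of the 3 core genes, H3c11 passed the dim filter mainly through stages where it is high.

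**Figure D2:**
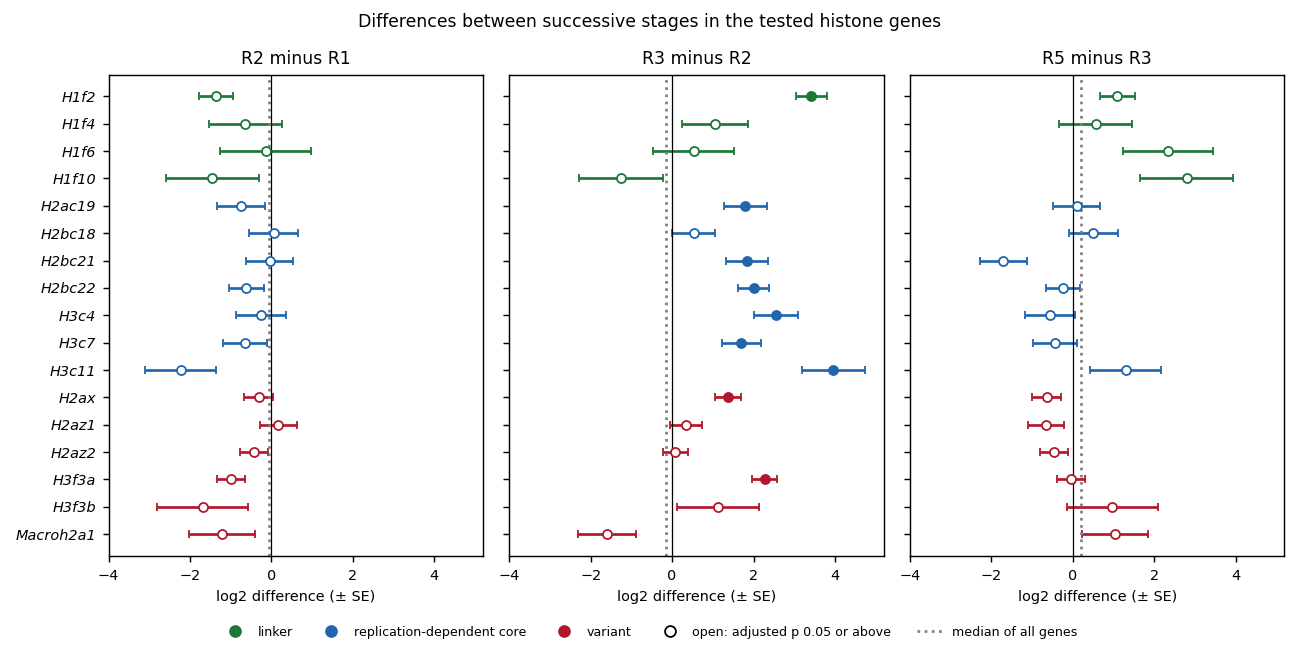
Log2 differences with their SE (x axis) of the 17 tested histone genes (y axis) for R2 minus R1, R3 minus R2 and R5 minus R3, coloured by class, with filled points for a limma adjusted p under 0.05 and a dotted line at the median of all genes. The 9 filled points all belong to R3 minus R2 and all lie to the right of 0. H1f6 entered the test through arrays on which it is high, and H3c11 mainly through such arrays.

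Of the variant genes, H3f3a and H2ax were called between R2 and R3, and the other 4 tested were not. The promoter of H3f3a, at chr1:180813556-180813855, minus strand (GRCm38.p6), is shown for comparison with those of the H3 genes, with capitals marking a match to AAACACA and to CCAAT, both on the opposite strand.
H3f3a: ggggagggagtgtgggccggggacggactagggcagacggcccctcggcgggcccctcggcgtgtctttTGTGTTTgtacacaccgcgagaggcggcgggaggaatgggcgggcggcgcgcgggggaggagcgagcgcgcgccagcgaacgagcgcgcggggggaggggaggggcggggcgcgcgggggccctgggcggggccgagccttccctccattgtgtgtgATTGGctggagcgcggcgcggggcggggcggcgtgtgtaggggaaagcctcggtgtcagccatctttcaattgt
It holds no TATAAA, and its CCAAT match starts 24 bases before the gene start. In the H3c4 and H3c11 windows the CCAAT match nearest the start lies at 56 bases, on the gene's strand, with others further upstream.

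H3f3a encodes H3.3, the H3 variant that replaces H3 outside replication. Its log2 signal was 9.33 and 9.86 in R1, 8.10, 8.88 and 8.81 in R2, 11.14, 10.90 and 10.56 in R3, 10.90 on the R4 array, and 10.88 and 10.77 in R5. The R3, R4 and R5 arrays lay close together and above every R1 and R2 array. R3 was higher than R2 by 2.27 ± 0.31, or 4.83-fold (limma adjusted p = 0.00145), and R5 differed from R3 by -0.04 ± 0.35. R5 was higher than R1 by 1.23 ± 0.38 at a limma adjusted p of 0.0489, a call that was lost in 15 of 19 alternative settings, with an adjusted p of up to 0.225.

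H3f3b, the other H3.3 gene, read 8.44 and 12.36 in R1, 7.49, 9.96 and 8.66 in R2, 9.41, 11.13 and 8.99 in R3, 9.50 on the R4 array, and 9.78 and 11.86 in R5. The replicate 2 array was the highest in each of R1, R2, R3 and R5, and the stages overlapped. Its difference of R3 from R2 was 1.14 ± 1.00 (limma adjusted p = 0.408). Another 5 probe sets were listed for H3.3 genes and related loci together. Of these, 3 were called higher in R3 than in R2, with differences of 1.79 ± 0.32, 1.61 ± 0.26 and 1.09 ± 0.33 (limma adjusted p = 0.00625, 0.00438 and 0.0476 over all probe sets). The remaining H3.3 probe sets differed by 0.49 ± 0.26 and 0.23 ± 0.27 without passing. All 5 were brighter than the H3f3a probe set, with mean log2 signals in R2 of 13.44 to 14.43 beside 8.60. Their differences were all smaller than its 2.27.

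H2ax encodes H2A.X, the variant whose phosphorylation marks DNA breaks. It read 13.08 and 13.19 in R1, 12.95, 13.14 and 12.36 in R2, 13.90, 14.70 and 13.99 in R3, 13.81 on the R4 array, and 13.14 and 13.96 in R5. Every R3 array was above every R1 and R2 array, and R5 overlapped both R1 and R3. R3 was higher than R2 by 1.38 ± 0.32, or 2.60-fold (limma adjusted p = 0.0168). The difference of R5 from R3 was -0.64 ± 0.36 (limma adjusted p = 0.340).

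H2az1 and H2az2 encode H2A.Z, a variant placed at promoters by exchange complexes. H2az1 read 14.45 and 13.94 in R1, 14.47, 14.12 and 14.51 in R2, 15.02, 14.27 and 14.84 in R3, 14.89 on the R4 array, and 14.91 and 13.19 in R5. Its R2 and R3 arrays overlapped, and R5 replicate 2 was its lowest array. The R3 minus R2 difference was 0.34 ± 0.40 (limma adjusted p = 0.541) on the deposited scale, and it was below 0 when arrays were quantile normalized (-0.26) or centred on their medians (-0.06). H2az2 read 12.69 and 13.05 in R1, 12.41, 12.47 and 12.47 in R2, 12.56, 12.47 and 12.55 in R3, 12.49 on the R4 array, and 12.68 and 11.44 in R5. Its R3 arrays lay above its R2 arrays by a narrow margin, at 0.08 ± 0.31 (limma adjusted p = 0.865), a difference again below 0 under both other scalings. Its dimmer probe set gave 0.93 ± 0.37 (limma adjusted p = 0.105 over all probe sets), and the probe sets listed for H2az1 with another locus gave 0.35 ± 0.33 and 0.35 ± 0.36.

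Macroh2a1 encodes macroH2A1, a variant with a large added domain that is found in silent chromatin. It read 13.66 and 13.06 in R1, 12.78, 12.69 and 10.96 in R2, 10.76, 9.52 and 11.34 in R3, 11.98 on the R4 array, and 12.94 and 10.22 in R5. It was the variant gene with the lowest difference of R3 from R2, at -1.60 ± 0.72, which did not pass (limma adjusted p = 0.122), and its R2 and R3 arrays overlapped. Both R5 arrays lay below both R1 arrays, and the R5 minus R1 difference was -1.78 ± 0.88 (limma adjusted p = 0.157). Without R5 replicate 1, that difference was -3.14 and was called lower. Macrophage markers, for cells that the fetal liver also holds, had a summed signal over 12 of 12 genes of 10590 to 15140 on the R1 arrays, 3706 to 6582 on the R2 arrays, 6067 to 7653 on the R3 arrays and 9001 to 10241 on the R5 arrays, so that R2 and R3 overlapped. The summed progenitor markers did not overlap between R1 and R2 or between R2 and R3 and were lower at each step, as were the gene's stage means, and R5 replicate 1 (22209) lay above R5 replicate 2 (6259), as for the gene. The part of either cell type in this profile was not tested. Macroh2a2, Macroh2a3 (a transcribed pseudogene per RefSeq) and H2bfm, an H2B variant gene, reached the array median on at most 1 array and were not tested. Their log2 signals spanned 2.02 to 6.65, 2.96 to 7.31 and 0.31 to 4.67 in that order.

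The probe sets listed for several histone genes cover the families that single genes could not, H4 among them. In the fit over all probe sets, 14 of these 25 were higher in R3 than in R2 and 0 were lower, where 8.33% of all probe sets tested were called higher and 7.11% lower. All 25 differences were above 0, with a median of 1.86, beside -0.03 for all probe sets. For 20 of them every R3 array lay above every R2 array. The shares of all probe sets with a positive difference or with arrays so separated were not computed. Of the 13100 genes tested, 5963 had a positive difference and 22.6% had arrays so separated. By family, 4 of 5 H4 probe sets, 3 of 5 H2B, 2 of 5 H3, 2 of 2 H2A and 3 of 5 H3.3 probe sets were called, as were 0 of 2 for H2A.Z and 0 of 1 for macroH2A. An H4 probe set, the H2B one listed for 6 genes and the H2A one listed for 2 are among those called. On every R2 array they lay below the array median. The same held for an H2B probe set listed for 3 genes and an H3 one listed for 8, which were not called. All of these passed the dim filter mainly through stages where they are high, and their differences are not measured folds. They count among the 25 positive differences and the 20 separated probe sets, and no recount without them was made. The signal of a gene cannot be told from that of its copies in these probe sets. All 5 H4 probe sets list the same 13 genes and all 5 H3.3 ones the same 6. Some also list genes described above from their own probe sets, such as H3c4 and H2bc22. The counts are therefore not of independent readings.

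A bright H4 probe set, listed for 13 genes, read 12.36 and 13.32 in R1, 12.35, 13.59 and 12.73 in R2, 14.77, 14.61 and 14.88 in R3, 13.96 on the R4 array, and 14.14 and 14.94 in R5. The R3 arrays lay above every R1 and R2 array, by a mean of 1.86 ± 0.38 over R2 (limma adjusted p = 0.0109). A probe set listed for 11 genes, nearly all H2B, read 13.50 and 14.14 in R1, 12.63, 13.98 and 12.91 in R2, 15.33, 15.36 and 15.47 in R3, 15.16 on the R4 array, and 15.60 and 16.43 in R5. Its R5 arrays lay above its R3 arrays, and R3 was higher than R2 by 2.22 ± 0.37 (limma adjusted p = 0.00472). A probe set listed for 12 H3 genes was higher in R3 than in R2 by 2.43 ± 0.58 (limma adjusted p = 0.0209), and one for 10 H2A genes by 0.93 ± 0.25 (limma adjusted p = 0.0338). From R3 to R5 limma called 0 of the 25, where 0% of all probe sets were called higher and 0.00347% lower, with 12 of 25 differences above 0 and a median of -0.04. From R1 to R5, 7 were called higher and 0 lower, where 8.58% of all probe sets were called higher and 5.28% lower: 3 for H3.3, 2 for H2B and 1 each for H2A and H4.

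**Figure D3:**
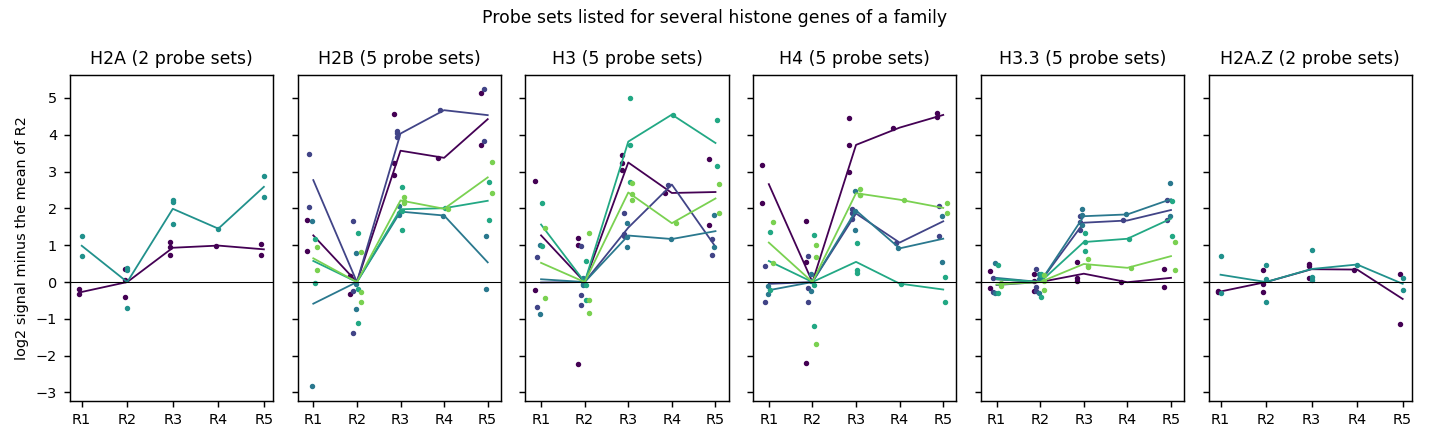
Log2 signal minus the mean of R2 (y axis) by stage (x axis) for the probe sets listed for several histone genes of a family, with 1 colour per probe set, points for arrays and lines for stage means. The H2A, H2B, H3 and H4 lines lie above 0 in R3, by 0.55 to 4.03 log2 units, and the H2A.Z lines by 0.35. The 4.03 belongs to the H2B probe set listed for 6 genes, which was below the array median on every R2 array.

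Over all promoters found, 4 short motifs were searched on both strands. CCAAT was found on either strand in 15 of the 18 histone promoters, 5 of 5 core ones among them, and in 37.4% of the 32851 mouse promoters of the same length in RefSeq. AAACACA, the H1 box, was found in 3 of 6 linker promoters (H1f2, H1f4 and H1f6, at 112, 115 and 114 bases before the start on the gene's strand) and in H3f3a, with 7.18% of all promoters holding it. TATAAA was found in 5 of 18, of which 3 were core genes, and in 13.6% of all promoters. The octamer ATGCAAAT, known from H2B promoters, was found in H2bc18 and H3f3b, and in 1.74% of all promoters. No match overlapped another, and a match is a description of the letters only. CCAAT stood in the promoters of genes that were called between R2 and R3 (H1f2, H3c11, H3c4, H2bc22, H2ac19 and H3f3a) and of genes that were not (H1f4, H1f6, H2az1, H2az2, H2bc18 and H3f3b). H2bc22, H3c4, H3c11, H1f2, H1f4 and H1f6 lie on chromosome 13 and H2ac19 and H2bc18 on chromosome 3 in that build.

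**Figure D4:**
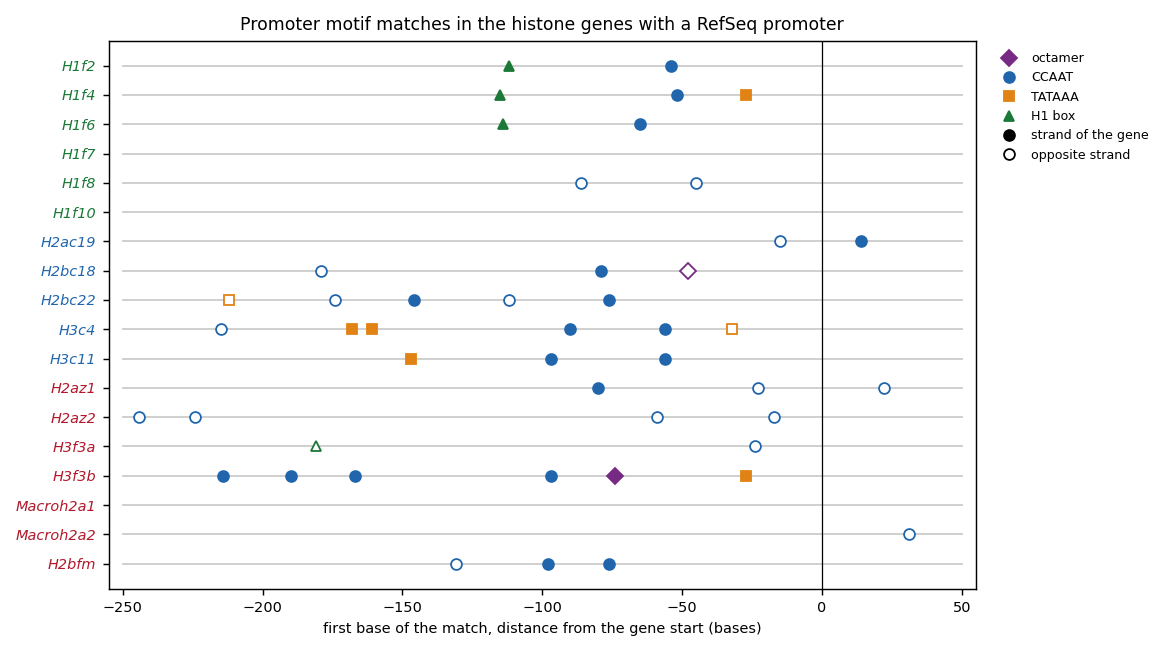
Matches to 4 motifs in the 18 histone promoters found, by the distance of the match's first base from the gene start in bases (x axis) and by gene (y axis), with filled symbols on the gene's strand and open ones on the opposite strand. The green triangles of H1f2, H1f4 and H1f6 line up at 112 to 115 bases before the start.

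Genes that make, carry and deposit histones were mixed in direction between R2 and R3. Of 18 tested genes of histone mRNA processing, 2 were higher and 7 lower, with a median log2 difference of -0.76, where 10.6% of all genes were called higher and 10.1% lower, so the 2 higher are near that share. Those higher were Slbp, which binds the stem-loop (0.87 ± 0.26, limma adjusted p = 0.0385), and Zfp473, a protein of the same processing complex (0.94 ± 0.30, limma adjusted p = 0.0488). Slbp read 13.02 and 13.20 in R1, 13.26, 13.61 and 14.02 in R2, 14.53, 14.48 and 14.51 in R3, and 12.76 and 12.20 in R5. Its R3 arrays lay above all arrays of R1, R2 and R5, and its R5 arrays below all of R1, R2 and R3. The lowest differences were those of Lsm11, a subunit of the U7 particle that guides histone mRNA cleavage (-1.67 ± 0.42, limma adjusted p = 0.0228), Coil, a scaffold of Cajal bodies (-1.65 ± 0.51, limma adjusted p = 0.0433), Ncbp2 of the cap-binding complex (-1.40 ± 0.34, limma adjusted p = 0.0197) and Cpsf3, the cleavage enzyme (-1.35 ± 0.39, limma adjusted p = 0.0352).

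Of 14 chaperones that act with replication, 2 were higher in R3 than in R2 and 0 lower, a count of higher genes near the 10.6% of all genes. These were Asf1b, which hands new H3 and H4 to the assembly factors (1.48 ± 0.22, limma adjusted p = 0.00236), and Rbbp4, a histone-binding subunit of the assembly factor CAF-1 (1.31 ± 0.23, limma adjusted p = 0.00482). Of 19 genes of variant exchange, 2 were higher and 3 lower, where all genes had 10.6% and 10.1%. Dek (1.17 ± 0.24, limma adjusted p = 0.00935), a chromatin protein linked to H3.3, and Anp32e (0.91 ± 0.29, limma adjusted p = 0.0488), which removes H2A.Z, were higher. Ruvbl1, Ruvbl2 and Ino80, subunits of the INO80 exchange complex, had differences of -2.05 ± 0.64, -1.92 ± 0.59 and -1.03 ± 0.33 and were called lower (limma adjusted p = 0.0442, 0.0440 and 0.0474). Among 26 S phase genes, 4 were higher and 0 lower, with a median of 0.18, again near the 10.6% called higher of all genes. They were Rrm2 of nucleotide synthesis (1.65 ± 0.27), the sliding clamp Pcna (0.93 ± 0.27), the ligase Lig1 (0.85 ± 0.25) and the primase Prim1 (0.83 ± 0.24), with limma adjusted p from 0.00383 to 0.0381. Among 25 mitosis genes, 16 were higher and 0 lower with a median of 1.12, led by Ube2c, a ubiquitin-conjugating enzyme of mitotic exit (2.25 ± 0.28), Cenpf, a kinetochore protein (1.99 ± 0.45), and the spindle proteins Nusap1 (1.70 ± 0.42) and Prc1 (1.58 ± 0.38), with limma adjusted p from 0.00100 to 0.0206.

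From R3 to R5 the medians of these lists ranged from -1.51 to -0.07, and differences between lists and histone genes were not tested. All 26 S phase genes had a negative difference, with a median of -1.51. An unadjusted p under 0.05 was found for 22 of them and for 19% of all genes. Of 14 replication chaperones, 13 were negative with a median of -1.04. The median was -0.70 for histone mRNA processing (15 of 18 negative), -0.62 for mitosis (22 of 25) and -0.07 for variant exchange (12 of 19). The core histone median was -0.24, where 58.2% of all genes were positive. Of the linker genes, H1f2 differed by 1.10 ± 0.42, H1f4 by 0.56 ± 0.91 and H1f10 by 2.80 ± 1.15. Without R3 replicate 3, the difference of H1f10 was 1.25. H1f6 is left out here, since it entered the test through arrays on which it is high. No gene of these lists was called. From R1 to R5, where 10.2% of all genes were called higher and 6.57% lower, 1 of the 26 S phase genes was higher and 3 were lower. Rrm2 was called higher (1.57 ± 0.34, limma adjusted p = 0.0119) and the S phase genes Mcm3 (-2.10 ± 0.35, limma adjusted p = 0.00317), Rfc3 (-1.81 ± 0.55, limma adjusted p = 0.0455) and Rrm1 (-1.13 ± 0.30, limma adjusted p = 0.0300) lower. In the same comparison 5 of 18 processing genes were lower, with Casp8ap2, a cofactor of histone gene expression, at -2.30 ± 0.47 (limma adjusted p = 0.00989), Ncbp2 at -1.88 ± 0.42, Cpsf2 at -1.88 ± 0.37 and Lsm1 at -1.54 ± 0.48, and Zfp473 was higher at 1.40 ± 0.37 (limma adjusted p = 0.0293). Rbbp4 (1.58 ± 0.28) and Anp32e (1.62 ± 0.36) were higher, Dnajc9, a histone chaperone of the J-domain family, was lower (-1.04 ± 0.30), and 9 of 25 mitosis genes were higher, led by Ube2c (3.34 ± 0.34), Mki67 (2.31 ± 0.29), Nusap1 (2.17 ± 0.51) and Cenpf (1.95 ± 0.55).

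**Figure D5:**
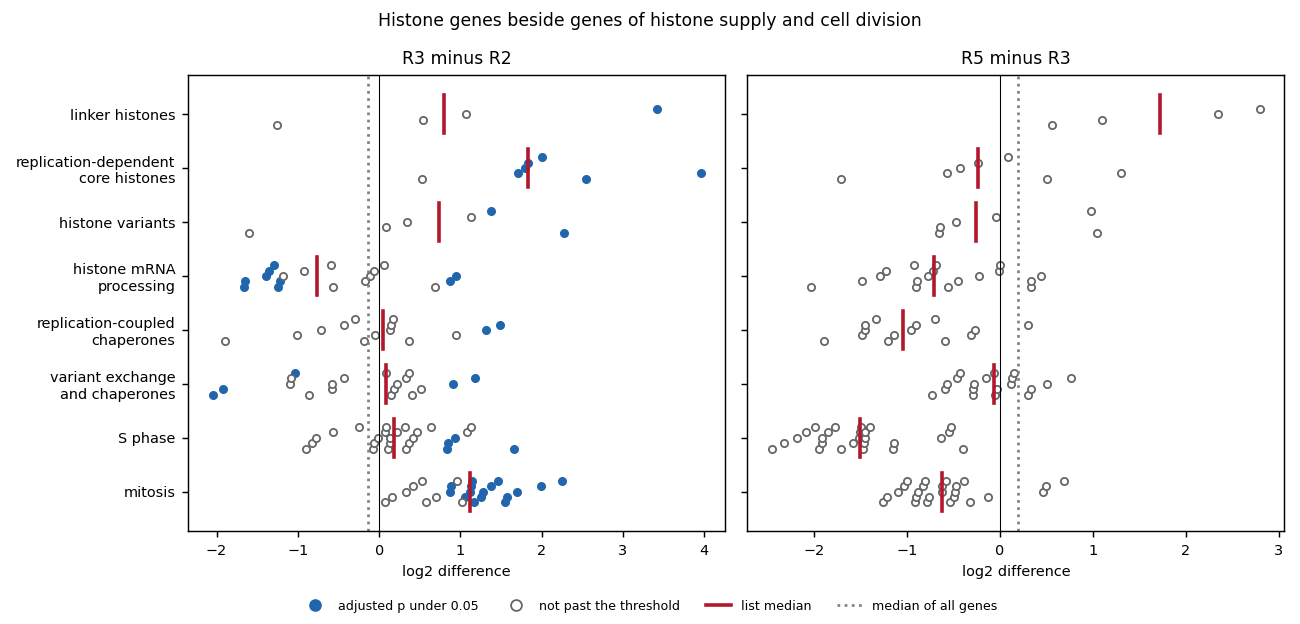
Log2 differences (x axis) of the tested genes of each histone class and of the lists of histone supply and cell division (y axis), for R3 minus R2 and R5 minus R3, with blue points for a limma adjusted p under 0.05, a red bar at each list's median and a dotted line at the median of all genes. For R3 minus R2 the core histone bar stands at 1.84 and the S phase bar at 0.18, and for R5 minus R3 they stand at -0.24 and -1.51. The linker bars include H1f6, which entered the test through arrays on which it is high.

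The authors' deposited table, which covers 45037 probe sets, gives the same differences against R2. In the authors' deposited table, the p-value for R3 against R2 was under 0.05 for 3 of the 9 genes called here, at 0.0180 for H1f2, 0.0270 for H3f3a and 0.0470 for H3c11. For the other 6, the authors' deposited table gives 0.0556 for H2bc22, 0.0698 for H3c4, 0.106 for H2ax, 0.120 for H3c7, 0.124 for H2bc21 and 0.134 for H2ac19. The share of all its probe sets under 0.05 was not computed. Its header does not say whether these p-values are adjusted, so they and the adjusted p-values given here may stand for unlike thresholds.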

How the data were processed

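The deposited values are linear signal intensities by the authors, 1 for each of 45101 probe sets (64 of them controls) on every array. MAS5 and limma are named by the submitters' processing notes, without versions or a genome build. On each array the deposited intensity had a mean of 500 after trimming 2% at each end. A further table that the authors deposited gives log2 stage means, log2 differences from R2 and p-values. Its header does not say which p-values are adjusted.

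Intensities were taken to log2 with no pseudocount or further normalization. Gene names came from the platform annotation, in which 34945 probe sets list 1 gene and 932 several. A gene was tested where its probe set reached the array median on at least 2 arrays. All 11 arrays entered 1 limma fit (limma 3.58.1, R 4.3.3, eBayes with trend) with a mean per stage, 6 residual and 4.83 prior degrees of freedom, and Benjamini-Hochberg adjustment over 13100 genes. A difference is given with its SE from this fit, which pools the spread over stages.

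Every linker and variant gene measured is named, the core genes called in a comparison or of highest mean, which came to all of them, and from each other list up to 4 called members each way per comparison. Members, lists and rules were chosen with earlier results of these data known. Promoters were matched to the genes in RefSeq tables by gene identifier, and the motifs were searched in them. Alternatives were the eBayes setting, a fit of the compared stages, the dim filter, quantile and median scaling, a pseudocount of 50, the mean over probe sets, the replicate block, leaving out each array and, chosen after seeing the data, a fit over all probe sets. The number of arrays limits the precision.

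Arrays of the same replicate number were checked for pairing. Of 13 pairs of arrays with the same number in different stages, 10 had deviations from their stage means that correlated at r over 0.1, with a range of -0.15 to 0.40, and 4 of 24 pairs with different numbers did, with a range of -0.40 to 0.22. Per the labels, the replicates of a set share an extraction date, but whether a set is a stage or a replicate number is not said. As not every same-numbered pair passed 0.1, the block was kept as an alternative.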

Additional observations from a re-analysis of the deposited data

How the results depend on the processing

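The count of 9 histone genes higher in R3 than in R2 was 6 to 9 under the other settings and 4 to 9 when 1 array was left out, with 4 without R2 replicate 1 and 5 without R3 replicate 2. H1f2, H3c11, H2bc22 and H3f3a kept this call in all 19 settings, H3c4 in 18, H2ax in 16, H2bc21 in 13, H3c7 in 12 and H2ac19 in 11. Of these, H3c11 lay below the array median on every R2 array. It entered the test mainly through stages where it is high, and its call carries that limit in every setting. None of the 11 called differences changed sign in 209 recomputed values, and 55 of 1083 recomputed values of uncalled differences did. The R5 minus R1 count of 2 was 1 with eBayes without trend, without the dim filter and over all probe sets, 4 with quantile normalization and with 50 added, 5 with the replicate block (H2bc22, H3c4 and H3c11 added), and 1 to 5 when 1 array was left out. The highest of these, without R5 replicate 1, was 3 higher and 2 lower, and the count was 1 without either R1 array, R2 replicate 1, any R3 array or R5 replicate 2. The fit of only the compared stages was run for the 4 pairwise comparisons. The R5 minus R3 count of 0 was 1 with median centring (H2bc21, lower) and 0 to 1 when 1 array was left out (H2az1, lower, without R5 replicate 1). The F-test count of 8 was 5 with eBayes without trend, and 5 to 10 when 1 array was left out, with 5 without R1 replicate 1, R3 replicate 1 or R3 replicate 2. The R2 minus R1 count stayed at 0 in all settings run. The causes were not tested. Under median centring the R5 minus R1 count was still 2, but with 1 higher (H1f2) and 1 lower (H2az2), and H3f3a was not called. Median centring moved the median of all genes for R3 minus R2 from -0.14 to -0.55 and left 7 histone calls. With the replicate block the counts for R3 minus R2, R5 minus R3 and the F-test were 9, 0 and 9. The block also raised the R5 minus R1 calls over all genes, from 2195 to 3735. Where leaving out an array left a stage with 1, that array was assumed to vary like the others. Signals near or below the array median, as for H2bc18, H1f6 and, in R2, H3c11, and 1 to 3 arrays per stage limit what can be told.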
